A study of Mus musculus with 14 samples.

Results

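The 9 genes described here set how a cell senses its sterols and moves them in and out: Srebf1, Srebf2, Scap, Insig1, Insig2, Mylip, Abca1, Abcg1 and Apoe. They were chosen by name and found by gene symbol among 23427 genes of 1 expression table. All 9 were in the table, and 8 of them passed the filter on low values and were tested, Abcg1 being the exception. The cells were primary oligodendrocyte precursor cells (OPCs) of C57BL/6J mice, labelled wild type, and their mRNA was sequenced in 14 libraries, 2 for each of 7 groups. Day0 libraries came from the precursors, and all other libraries came from Day3 cells. There were 4 control groups at Day3, called non-treated, mock, NC siRNA #1 and NC siRNA #2, the last pair being negative-control siRNAs. The table's columns for non-treated cells carry the day alone, and they were assigned to that group because every other Day3 column carries a treatment. One siSbp2l column has a misspelt name and was assigned by its nearest spelling. The knockdown groups were siSbp2l, which targets Sbp2l (listed in the table as Secisbp2l, a paralog of the SECIS-binding protein of selenoprotein mRNAs), and siPdgfra, which targets the receptor of the precursor mitogen PDGF-AA. Per the methods, cortices of 3 pups of postnatal day 7 were dissected, precursors were isolated by immunopanning, differentiation was started by removing PDGF-AA and adding thyroid hormone T3, and the libraries of a group were independent replicates. The labels give a medium with 10% fetal bovine serum, which carries sterols, whereas the methods list no serum in the medium of these cells. The libraries are of bulk cultures, in which fewer cells of a type cannot be told apart from less RNA per cell.

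SREBP-1 (from Srebf1) and SREBP-2 (from Srebf2) are made as precursors in the membrane of the endoplasmic reticulum. Scap carries them to the Golgi when sterols are low, where proteases release the active factor, which switches on genes of cholesterol and fatty acid synthesis. Insig1 and Insig2 hold Scap back when sterols are plentiful, and Insig1 is itself a classical SREBP target. When sterols are in excess, oxysterols activate the liver X receptors (LXRs), whose targets include Abca1 and Abcg1, which export cholesterol, Apoe, which accepts it, and Mylip (also called Idol), which marks lipoprotein receptors for degradation. Oligodendrocytes make large amounts of cholesterol for myelin, so both arms are of interest during differentiation.

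Levels are given as FPKM, mapped fragments scaled for exon length and library total. Fragment totals recovered from the steps between low values ran from 6560812 to 31621250 per library. Differences were tested on log2(FPKM + 1), which understates changes of low genes, with limma and Benjamini-Hochberg adjustment over all genes tested. "Passed" means an adjusted p under 0.05, and "2-fold" means that the fitted difference was also at least 1 on the log2 scale. The targeted genes matched their labels: Secisbp2l was at 3.91 and 3.82 FPKM in siSbp2l, 97.9% under the mean of the 4 controls, and Pdgfra at 3.30 and 2.69 FPKM in siPdgfra, 94.2% under it. The oligodendrocyte list of 8 markers summed to between 402 and 447 FPKM at Day0 and to between 1699 and 8976 FPKM at Day3. The non-treated pair stood apart. Its log2 difference between replicates had an SD of 0.457 over genes, against 0.148 to 0.1995 in the other 6 pairs, and it followed GC content (Spearman's rho -0.80 across genes). The GC-rich members Srebf1, Srebf2, Scap and Apoe were all affected, so results that rest on this pair are given without it as well. The median of all genes was itself 0.15 higher in siSbp2l and 0.09 higher in siPdgfra than in the controls, and 0.12 lower in non-treated Day3 than in Day0 cells, on the log2 scale.

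**Figure D1:**
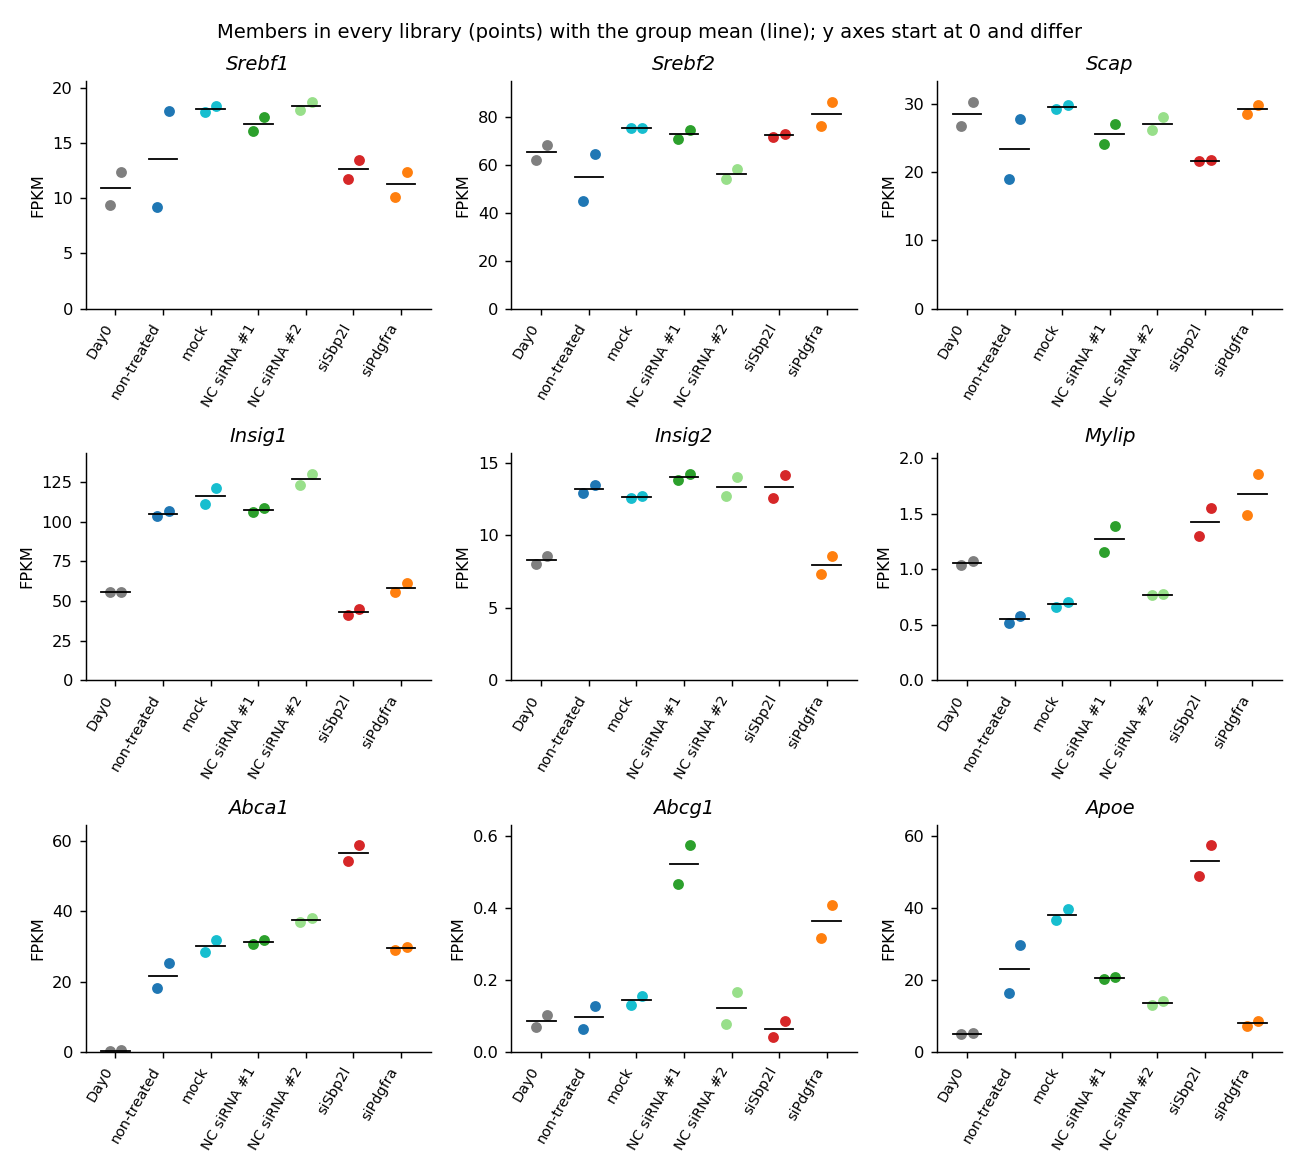
FPKM of the 9 members (y axes, each starting at 0) in the 7 groups (x axes); points are the 2 libraries of a group and the line is their mean. Insig1 sits between 103 and 130 FPKM in the 8 control libraries and between 41.0 and 61.3 FPKM in the 4 knockdown libraries, and Abca1 rises from under 1 FPKM at Day0 to at least 18.1 FPKM in every Day3 library.

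Insig1 was lower in both knockdowns than in every control. Its FPKM was 55.6 and 55.8 at Day0, 107 and 103 in non-treated, 121 and 111 in mock, 106 and 109 in NC siRNA #1, and 123 and 130 in NC siRNA #2 cells. It was 44.9 and 41.0 in siSbp2l and 55.5 and 61.3 in siPdgfra cells. No control library overlapped a knockdown library, and siPdgfra cells were at the Day0 level while siSbp2l cells were below it.  Insig1 was 1.38 lower in siSbp2l than in the 4 controls on the log2 scale (SE 0.08, adjusted p = 5.4e-07, limma), and 0.95 lower in siPdgfra (SE 0.08, adjusted p = 5.4e-06). The oligodendrocyte markers are set beside it. Their sum was 1699 and 1900 FPKM in siSbp2l, 4282 and 4957 FPKM in siPdgfra, and from 4820 to 8976 FPKM in the controls. In siSbp2l 8 of 8 fell against the mean of the 4 controls, where 53.4% of all genes passed in either direction. Against NC siRNA #1 alone Opalin was 0.08 higher on the log2 scale and did not pass (adjusted p = 0.67, limma). NC siRNA #2 cells, with sums of 4820 and 4950 FPKM like those of siPdgfra, had the highest Insig1. The part of maturation state in the Insig1 result was not tested.

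Against each control taken singly, Insig1 was lower by at least 2-fold in siSbp2l cells in 4 of 4 comparisons, with log2 differences from -1.54 to -1.27. Of all genes tested, 10.6% were called so with non-treated as the control, 8.01% with mock, 9.86% with NC siRNA #1 and 7.67% with NC siRNA #2. In siPdgfra cells Insig1 passed in 4 of 4 comparisons but reached 2-fold in 1 of them, with log2 differences from -1.11 to -0.84. There the shares of all genes called were 11.0% with non-treated as the control, 9.43% with mock, 9.74% with NC siRNA #1 and 10.2% with NC siRNA #2. These comparisons share the knockdown libraries and are not separate evidence. Set against Day0, Insig1 was 0.37 lower in siSbp2l (adjusted p = 0.0039, limma; 65.4% of all genes passed), a value on the log2(FPKM + 1) scale. In siPdgfra it was 0.07 higher than at Day0 with SE 0.09, which did not pass (adjusted p = 0.53, limma; 67.8% of all genes passed).

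The upstream window of Insig1 is shown because Insig1 was lower in both knockdowns and because its letters can be set beside those of Abca1, which moved the other way in siSbp2l. The 250 bases before each start site are printed 5′ to 3′ on the gene's strand from RefSeq's GRCm38.p6, at chr5:28071162-28071411 (+) for Insig1 and chr4:53159896-53160145 (-) for Abca1, with the E-box letters CACGTG in capitals.
Insig1: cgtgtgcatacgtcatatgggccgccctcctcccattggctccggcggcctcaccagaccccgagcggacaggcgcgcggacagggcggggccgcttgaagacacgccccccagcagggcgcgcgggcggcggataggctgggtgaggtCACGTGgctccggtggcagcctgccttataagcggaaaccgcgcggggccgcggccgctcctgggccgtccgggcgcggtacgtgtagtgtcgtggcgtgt
Abca1: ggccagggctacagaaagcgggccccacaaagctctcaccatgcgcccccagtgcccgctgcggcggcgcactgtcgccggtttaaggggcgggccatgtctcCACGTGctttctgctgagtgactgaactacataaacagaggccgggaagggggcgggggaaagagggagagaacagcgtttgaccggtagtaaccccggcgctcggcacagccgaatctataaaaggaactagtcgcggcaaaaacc
The E-box, a palindrome that several basic helix-loop-helix factors including the SREBPs can bind, begins at -101 from the start site in Insig1 and at -147 in Abca1. It was also found in Scap, at -40. These are 3 of the 8 members with a window in the table, Abcg1 having none. Counted by window, 3 of the 15 windows of these members held it, as did 6.02% of all 32851 windows of that length. The sterol regulatory element written as TCACNCCAC, searched on both strands, was in 0 of 8 member genes' windows and in 1.05% of all windows. Among the 19 genes of sterol synthesis, 14 had a window, 3 of them with the E-box and 1, Hmgcs1, with the TCACNCCAC letters. A match is only a description of letters, and its absence says nothing about a factor.

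Insig2, the related retention protein, did not follow Insig1 in siSbp2l cells. Its FPKM was 8.56 and 8.001 at Day0, between 12.6 and 14.2 with a median of 13.2 in the 8 control libraries, 12.5 and 14.1 in siSbp2l, and 7.35 and 8.56 in siPdgfra cells. The siSbp2l libraries lay within the controls, and the siPdgfra libraries lay with the Day0 libraries below all controls. On the log2 scale the difference from the controls was 0.00 with SE 0.08 in siSbp2l (adjusted p = 0.97, limma). In siPdgfra Insig2 was 0.68 lower (SE 0.08, adjusted p = 9.0e-05, limma), and it passed against each of the 4 controls. Between the knockdowns the Insig2 difference was 0.68 (SE 0.11, adjusted p = 0.00040, limma), higher in siSbp2l.

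The ratio of Insig1 to Insig2 FPKM within a library, which compares the pair per length, was therefore lowest in siSbp2l. It was 3.59 and 2.90 there, between 7.62 and 10.3 in the controls, 7.55 and 7.16 in siPdgfra, and 6.49 and 6.97 at Day0. In siPdgfra both members of the pair were low and their ratio stayed near the Day0 values.

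**Figure D2:**
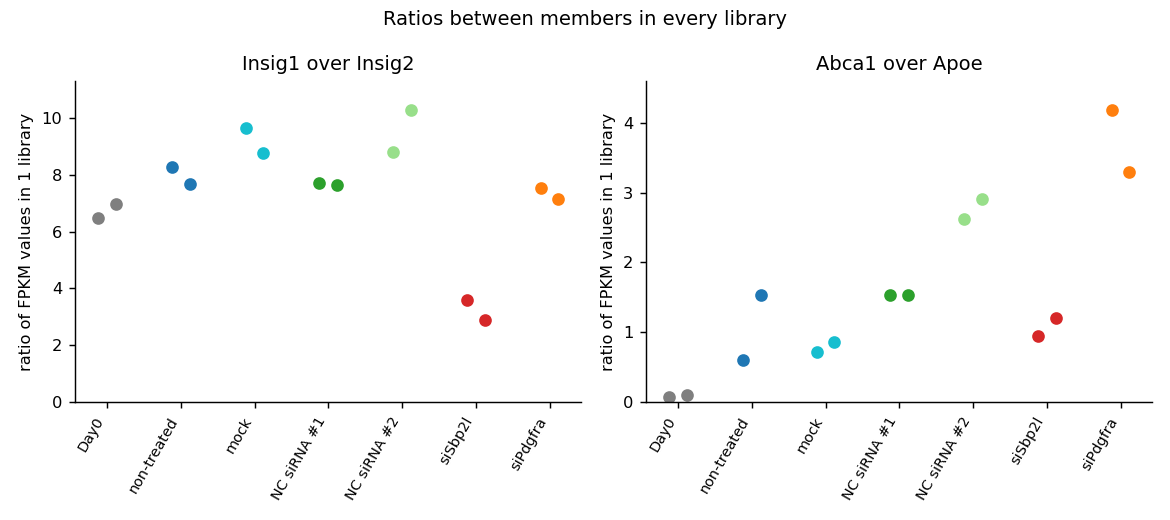
Ratio of FPKM values within each library (y axes, starting at 0) in the 7 groups (x axes), for Insig1 over Insig2 (left) and Abca1 over Apoe (right); each point is 1 library. The siSbp2l libraries have the lowest Insig1 to Insig2 ratios, 3.59 and 2.90, and the siPdgfra libraries have the highest Abca1 to Apoe ratios, 4.18 and 3.29.

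The precursor genes themselves did not reach 2-fold in either knockdown against any control. Srebf2 was among the more abundant genes (percentile 91.2 of the tested genes by mean level), with 68.6 and 62.1 FPKM at Day0, 45.0 to 75.6 in the controls, 71.9 and 73.0 in siSbp2l, and 86.5 and 76.2 in siPdgfra cells. The siPdgfra libraries were above every control, and the siSbp2l libraries lay within them. Srebf2 was 0.34 higher on the log2 scale in siPdgfra than in the controls (SE 0.12, adjusted p = 0.032, limma). That call was lost under both other scalings, with no filter, and without either mock, either siPdgfra, the first NC siRNA #1 or the second NC siRNA #2 library, with adjusted p from 0.051 to 0.24. In siSbp2l the difference was 0.18 (SE 0.12, adjusted p = 0.23, limma), and without the first non-treated library it was 0.24 and passed (adjusted p = 0.0030), whereas without the second it was 0.11 and did not (adjusted p = 0.099).

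Srebf1 was lower per length than Srebf2 in every library. It was 12.4 and 9.42 FPKM at Day0, 17.9 and 9.20 in non-treated, 17.8 and 18.4 in mock, 16.1 and 17.3 in NC siRNA #1, and 18.03 and 18.8 in NC siRNA #2 cells. It was 11.7 and 13.5 in siSbp2l and 12.4 and 10.1 in siPdgfra. Both knockdowns lay below 7 of the 8 control libraries, the second non-treated library being the exception. The log2 difference from the controls was -0.35 in siSbp2l (SE 0.18, adjusted p = 0.125, limma) and -0.51 in siPdgfra (SE 0.18, adjusted p = 0.036, limma). Without the non-treated group the siSbp2l difference was -0.46 and passed (adjusted p = 0.00034) as it did under both other scalings. The siPdgfra call was lost with no filter, in a fit of only the libraries compared, and without any 1 of the mock, NC siRNA #1, NC siRNA #2 or siPdgfra libraries, with adjusted p from 0.050 to 0.27. The Srebf2 to Srebf1 ratio was 2.89 to 4.89 in the controls, 6.13 and 5.41 in siSbp2l, 6.99 and 7.52 in siPdgfra, and 5.52 and 6.59 at Day0, so the controls were below the other 3 groups without overlap.

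Scap, the escort protein, stood at 30.4 and 26.8 FPKM at Day0, 18.9 to 29.8 in the controls, 21.7 and 21.6 in siSbp2l, and 29.8 and 28.6 in siPdgfra cells. Apart from the second non-treated library at 18.9 FPKM, the siSbp2l libraries were the lowest of all. The siSbp2l difference was -0.26 on the log2 scale (SE 0.12, adjusted p = 0.089, limma), and it passed without the non-treated group (-0.32, adjusted p = 0.00046) and under both other scalings. In siPdgfra the difference was 0.15 (SE 0.12, adjusted p = 0.30, limma), and it passed without the first non-treated library (0.22, adjusted p = 0.0048) but not without the second (0.085, adjusted p = 0.20). Directly between the knockdowns Scap was 0.41 lower in siSbp2l (SE 0.15, adjusted p = 0.042, limma), a call lost with no filter and without any 1 of the 4 knockdown libraries (adjusted p from 0.065 to 0.16).

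A microRNA gene lies inside Srebf2 and its seed matches are a feature of the export genes, so its letters are shown. The mature mmu-miR-33-5p (RefSeq, GRCm38.p6, chr15:82198127-82198147, +) has its seed, bases 2 to 8, in capitals. Below it is a 30-base stretch of the 3′ untranslated region of Abca1 (GENCODE, GRCm38, chr4:53033783-53033812, -). Its 3 overlapping or neighbouring matches to the seed, CAATGCA, are in capitals.
mmu-miR-33-5p: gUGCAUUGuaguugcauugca
Abca1: tattCAATGCAATGCActtCAATGCAacga
The hairpin was in an exon of 0 of 2 coding transcripts of Srebf2 and is thus intronic in both. The letters occurred 3 times in the 3156 bases of the Abca1 3′ untranslated region, 2 times in the 3703 bases of that of Abcg1, and 0 times in those of the other 7 members. These libraries measure mRNA, and the miRNA was listed at 0 in all of them, which says nothing about the mature form.

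Abca1, the exporter that loads cholesterol onto lipid-poor apolipoproteins, had the widest range of any member as a ratio of its highest to its lowest library. Its FPKM was 0.385 and 0.511 at Day0, 18.1 and 25.3 in non-treated, 28.5 and 31.8 in mock, 30.8 and 31.8 in NC siRNA #1, and 36.9 and 38.0 in NC siRNA #2 cells. It was 54.3 and 58.7 in siSbp2l and 29.96 and 28.8 in siPdgfra. Every Day3 library was above both Day0 libraries, both siSbp2l libraries were above every other library, and the siPdgfra libraries lay within the controls. The mean of the siSbp2l pair was 1.87 times the mean of the 4 controls. On the log2 scale it was 0.91 higher (SE 0.11, adjusted p = 8.1e-05, limma), and it passed against each of the 4 controls with differences from 0.58 to 1.36. The smallest, against NC siRNA #2, was 0.53 without the second siSbp2l library and no longer passed (adjusted p = 0.058). In siPdgfra the difference was -0.00 (SE 0.11, adjusted p = 0.97, limma), and without the non-treated group it was -0.15 and passed (adjusted p = 0.031).

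Apoe, the apolipoprotein that carries exported sterol between brain cells, moved in opposite directions in the knockdowns. Its FPKM was 5.18 and 5.12 at Day0, 29.8 and 16.5 in non-treated, 39.7 and 36.6 in mock, 20.2 and 20.8 in NC siRNA #1, and 14.1 and 13.04 in NC siRNA #2 cells. It was 57.3 and 48.8 in siSbp2l and 7.17 and 8.76 in siPdgfra. The siSbp2l libraries were above and the siPdgfra libraries below all 8 controls, but the controls themselves ranged over 13.04 to 39.7 FPKM. Apoe was 1.22 higher in siSbp2l (SE 0.17, adjusted p = 0.00024, limma) and 1.37 lower in siPdgfra (SE 0.17, adjusted p = 0.00011, limma) than the controls on the log2 scale, and 2.59 higher in siSbp2l than in siPdgfra (SE 0.22, adjusted p = 8.3e-06, limma).

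Against mock alone the Apoe difference in siSbp2l was 0.46 and did not pass (adjusted p = 0.11, limma), and it passed against the other 3 controls with up to 1.89. In siPdgfra it passed against all 4, with log2 differences from -2.13 to -0.71. The smallest, against NC siRNA #2, no longer passed without either NC siRNA #2 library or the first siPdgfra library (adjusted p from 0.074 to 0.14). Apoe is abundant in astrocytes and microglia as well, and their markers are set beside it. The 8 astrocyte markers summed to 49.1 and 50.5 FPKM in siPdgfra, 105 to 178 FPKM in the controls, 129 and 136 FPKM in siSbp2l, and 67.9 and 70.3 FPKM at Day0. Of the 6 astrocyte markers tested in siPdgfra, 6 fell, among them Gfap and Slc1a3, where 55.4% of all genes passed in either direction. In siSbp2l 2 were higher and 3 lower, where 53.4% of all genes passed. The astrocyte list was thus low in siPdgfra, where Apoe was low, and within the control range in siSbp2l, where Apoe was highest; its part in the Apoe result was not tested. The 10 microglia markers summed to between 1.89 and 10.4 FPKM in all libraries, with 4 to 8 of them listed at 0 in both libraries of a group, and the largest sums were in NC siRNA #1. Endothelial and pericyte markers summed to under 2 FPKM in every library.

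The Abca1 to Apoe ratio in a library was 0.947 and 1.20 in siSbp2l, 4.18 and 3.29 in siPdgfra, 0.610 to 2.91 in the controls, and 0.0743 and 0.0999 at Day0. The plot of ratios shows the siPdgfra libraries above and the Day0 libraries below all others, with the siSbp2l libraries inside the controls.

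Mylip was expressed at about 1 FPKM. It was 1.04 and 1.07 FPKM at Day0, 0.518 and 0.581 in non-treated, 0.661 and 0.709 in mock, 1.16 and 1.39 in NC siRNA #1, and 0.780 and 0.766 in NC siRNA #2 cells. It was 1.55 and 1.30 in siSbp2l and 1.86 and 1.49 in siPdgfra, from 15 to 119 fragments a library. It reached the filter's 1 FPKM in the NC siRNA #1 libraries and in those of both knockdowns, so a control pair alone would have let it pass. Mylip was 0.43 higher in siSbp2l (SE 0.09, adjusted p = 0.0020, limma) and 0.57 higher in siPdgfra (SE 0.09, adjusted p = 0.00032, limma) on the log2(FPKM + 1) scale. The NC siRNA #1 libraries overlapped the siSbp2l range, and the other 6 control libraries lay below both knockdowns. Against NC siRNA #1 alone neither knockdown passed, with 0.09 in siSbp2l (adjusted p = 0.50, limma) and 0.24 in siPdgfra (adjusted p = 0.098, limma). Against the other 3 controls both passed, with 0.45 to 0.65 in siSbp2l and 0.59 to 0.79 in siPdgfra.

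Abcg1, the second exporter, stayed at or under 0.575 FPKM and was not tested. The NC siRNA #1 libraries had 0.575 and 0.469 FPKM and the siPdgfra libraries 0.410 and 0.318. The siSbp2l libraries had 0.0424 and 0.0871, and the other 8 libraries ranged up to 0.167 FPKM. These values stood for 3 to 66 fragments, so at this depth low levels could not be ordered. The NC siRNA #1 and siPdgfra libraries were above the rest.

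**Figure D3:**
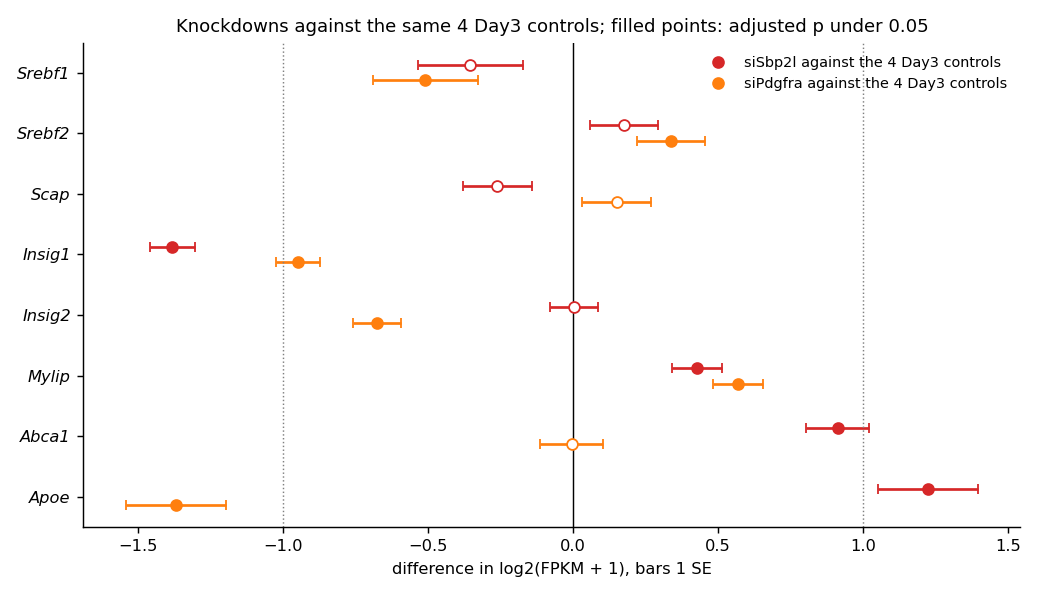
Difference in log2(FPKM + 1) from the mean of the 4 Day3 controls (x axis) for the 8 members tested (y axis), in siSbp2l (red) and siPdgfra (orange); bars are 1 SE, filled points passed at an adjusted p under 0.05, and dotted lines mark 2-fold. Insig1 is at -1.38 and -0.95, Apoe at 1.22 and -1.37, and Abca1 at 0.91 and -0.00.

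In all, 4 of the 8 tested members passed in siSbp2l against the 4 controls, where 53.4% of all 11650 genes passed, and 2 (Insig1 and Apoe) reached 2-fold, where 7.19% of all genes did. In siPdgfra 6 of 8 passed against 55.4% of all genes, and 1 (Apoe) reached 2-fold against 7.99%. Both sets of differences use the same control libraries. Between the knockdowns, 5 of 8 passed against 52.0% of all genes, and 1, Apoe, reached 2-fold against 13.7%. The shares that passed were thus near those of all genes. Srebf1, Scap and Srebf2 passed in siSbp2l as well once the first non-treated library was left out, which made 7 of 8, where 71.0% of all genes then passed. Without the second non-treated library Srebf1 and Scap passed and Srebf2 did not, which made 6 of 8, where 68.5% of all genes passed.

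Differentiation without any siRNA was read from non-treated Day3 against Day0 cells. Abca1 rose by 3.96 on the log2 scale (SE 0.13, adjusted p = 7.4e-10, limma), from a mean of 0.448 to 21.7 FPKM. Apoe rose by 1.91 (SE 0.21, adjusted p = 8.9e-06, limma), Insig1 by 0.90 (SE 0.09, adjusted p = 4.1e-06) and Insig2 by 0.61 (SE 0.10, adjusted p = 0.00023). Mylip was 0.41 lower (SE 0.10, adjusted p = 0.0034, limma). Thus 5 of 8 members passed, where 67.0% of all 11874 genes did, and 2 reached 2-fold, where 26.6% did. Srebf1 (0.23), Srebf2 (-0.27) and Scap (-0.30) did not pass, with adjusted p from 0.0935 to 0.394, limma. Without the first non-treated library Srebf2 and Scap were 0.52 and 0.57 lower and passed. Without the second they differed from Day0 by -0.01 and -0.03 and did not pass (adjusted p = 0.91 and 0.77, limma). The rise of Apoe was 1.51 without the first and 2.32 without the second, and passed both times. With mock in place of non-treated cells Apoe was 2.67 higher than at Day0, which is 7.41 times the Day0 mean in FPKM against 4.49 times for non-treated cells. Insig1 then reached 2-fold at 1.05, and Srebf1 was 0.69 higher and passed, while Srebf2 and Scap changed sign, at 0.21 and 0.05, and did not pass. That made 6 of 8 members that passed, where 66.3% of all genes did, and 3 at 2-fold, where 26.2% were. Beside them, 8 of 19 sterol synthesis genes rose and 2 fell from Day0 to non-treated cells (67.0% of all genes passed in either direction), Hsd17b7 from 13.1 to 37.0 FPKM among the former. Of the genes acting on SREBP precursors or Insig proteins 1 of 10 rose and 4 fell, Erlin1 from 11.8 to 4.19 FPKM and Rnf145 from 63.7 to 47.1 FPKM among them.

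The control siRNAs were compared to show how far the members move without a targeted gene. Between NC siRNA #1 and NC siRNA #2, 1 of 8 members passed, where 21.0% of all genes did, and 0 reached 2-fold, where 3.99% did. That member was Mylip (0.36, SE 0.11, adjusted p = 0.040, limma), whose call was lost without any 1 of the 4 libraries. Apoe differed by 0.56 between them (SE 0.22) and did not pass (adjusted p = 0.10). Against the cells that received no siRNA, both NC siRNAs together moved 3 of 8 members, where 28.1% of all genes passed, and 0 by 2-fold, where 1.28% did. Apoe was 0.77 lower (SE 0.15, adjusted p = 0.0048, limma), Abca1 0.42 higher (SE 0.10, adjusted p = 0.011) and Mylip 0.31 higher (SE 0.08, adjusted p = 0.013). The Abca1 call was lost without the first mock library (0.38, adjusted p = 0.052) and the Mylip call without the second NC siRNA #1 library (0.27, adjusted p = 0.060). In siSbp2l, Abca1 differed from the controls by more, and Apoe in the other direction; the gap between these differences was not tested.

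**Figure D4:**
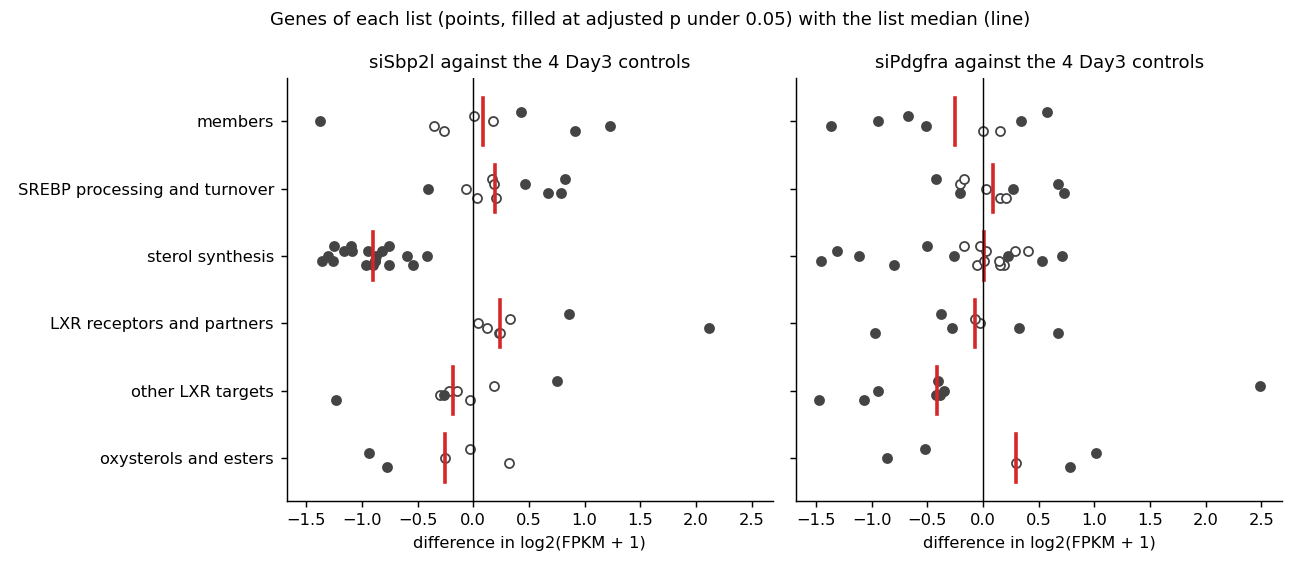
Difference in log2(FPKM + 1) from the 4 Day3 controls (x axes) for the tested genes of 6 lists (rows), in siSbp2l (left) and siPdgfra (right); points are genes, filled where they passed, and red lines are list medians. All 19 genes of sterol synthesis lie below 0 in siSbp2l, with a median of -0.90, and their median is 0.01 in siPdgfra. In the row of LXR receptors and partners, Rxrg is drawn as a filled point in siSbp2l. It passed the filter on low values only through the siSbp2l pair, so its points are not to be read as tests, although they enter the list medians.

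The genes of sterol synthesis, classical targets of the SREBPs, were set beside Insig1. In siSbp2l 19 of 19 fell with a median of -0.90 on the log2 scale, 7 of them by 2-fold, where 2091 of all 11650 genes fell and the median of all genes was 0.15. Examples were Sc5d, a late desaturase (from 35.2 to 13.1 FPKM, group means), Msmo1, a demethylating oxidase (95.3 to 39.2 FPKM), Mvd (32.3 to 12.1 FPKM) and Idi1 (85.8 to 34.9 FPKM), both of the isoprenoid steps. In siPdgfra, where Insig1 was also lower, 6 of 19 fell and 3 rose, with a median of 0.01, where 55.4% of all genes passed. Sc5d, Msmo1 and Idi1 did not pass there, while Mvd was 1.11 lower. Directly between the knockdowns 15 of the 19 were lower and 1 was higher in siSbp2l, where 52.0% of all genes passed in either direction.

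The proteases, ubiquitin ligases and anchors that act on SREBP precursors and Insig proteins moved in both directions, more of them up than down in siSbp2l. Of 10 such genes 4 rose and 1 fell in siSbp2l, near the 53.4% of all genes that passed. Rnf145, a ligase that acts on Scap, went from 48.4 to 86.2 FPKM (0.82), Paqr3, a Golgi anchor of the Scap complex, from 4.79 to 8.91 FPKM (0.79), Erlin1, a cholesterol-binding protein of the endoplasmic reticulum, from 4.32 to 7.45 FPKM (0.67), and Fbxw7, part of the ligase for active SREBP, from 5.65 to 8.12 FPKM (0.46, all log2 differences). Mbtps1 and Mbtps2, the site-1 and site-2 proteases, differed by 0.17 and 0.20 and did not pass. In siPdgfra 3 of the 10 rose and 2 fell, near the 55.4% of all genes that passed, and Paqr3 and Fbxw7 were again higher (0.73 and 0.67). Without the non-treated group 7 rose in siSbp2l, a count for which the share of all genes is not given here. With median-ratio scaling the list median in siSbp2l went from 0.19 to 0.03.

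The other LXR targets showed no common direction in siSbp2l. Of 8 tested, Arl4c was 0.75 higher, Abca2 was 1.23 lower and Lpcat3 0.27 lower, and 5 did not pass, where 53.4% of all genes passed. The members Abca1 and Apoe, which are not counted in this list, were higher as well. Clu, another apolipoprotein, was at 37.6 and 39.5 FPKM in siSbp2l and at 25.4 to 52.1 FPKM in the controls. In siPdgfra 7 of the 8 fell and 1 rose, with a list median of -0.41, where 55.4% of all genes passed and their median was 0.09. Among the receptors, Nr1h2 (LXR beta) was at 26.2 and 27.1 FPKM in siSbp2l and at 11.5 to 25.9 FPKM in the controls, and did not pass (adjusted p = 0.15, limma). Nr1h3 (LXR alpha) was under 0.4 FPKM in all libraries. Of their retinoid partners, Rxra rose from 5.93 to 11.5 FPKM (0.86) in siSbp2l and was lower than the controls in siPdgfra (-0.38). Rxrg was at 4.604 and 4.777 FPKM in siSbp2l, at 0.0439 to 0.666 FPKM in the controls and at 0.0657 and 0.0939 FPKM in siPdgfra. It passed the filter on low values only through the siSbp2l pair, where it was high, so its values are given with no test.

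Genes of lipoprotein uptake and of sterol movement split in both directions. In siSbp2l 4 of 11 rose and 4 fell, where 53.4% of all genes passed in either direction. Vldlr, a receptor for Apoe-bearing particles, fell from 48.4 to 23.1 FPKM, while the large receptor Lrp1 rose from 16.9 to 30.2 FPKM. In siPdgfra 7 of 11 rose and 2 fell, where 55.4% of all genes passed, among the latter Lrp1 at 5.81 FPKM. From Day0 to non-treated Day3, Vldlr and Npc1, which moves cholesterol out of lysosomes, rose and Scarb1, a receptor for high-density lipoprotein, fell from 21.7 to 4.59 FPKM. In the list of oxysterol and ester enzymes, Nceh1 and Cyp46a1 fell in siSbp2l (23.3 to 11.2 and 14.2 to 7.14 FPKM) and both were higher in siPdgfra (46.0 and 22.9 FPKM). Fatty acid synthesis genes moved less uniformly: 4 of 11 fell and 2 rose in siSbp2l, Scd2 from 1141 to 563 FPKM and Elovl6 from 28.4 to 13.98 FPKM among the former, and 7 fell and 3 rose in siPdgfra, beside the same shares of all genes.

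The genes whose levels over the 7 group means were most like those of a member, by Pearson's r as a description over libraries that share their controls, were Gng7 (0.99), Myh14 (0.99) and Eif2c3 (0.98) for Insig1, and Kifc2, Hsd3b7 and Itfg3 (0.994 to 0.996) for Abca1. For Apoe they were Vcam1 (0.98), Rab5c (0.97) and Pink1 (0.97), and for Insig2 Herpud2, Snx13 and Col11a2 (each 0.99). For Mylip they were Plagl2, Hic2 and Tanc2 (0.99, 0.99 and 0.98), and for Srebf1 Leprel4 (0.98), Shd (0.96) and Kifc3 (0.96). The likest gene of Scap was Map2k2 (0.95). For Srebf2 Cdpf1 (0.93), Anks6 (0.91) and Zfat (0.89) came first, the lowest set of the 8 members. Between members, Abca1 and Apoe had r = 0.70 and Insig1 and Insig2 r = 0.54 over the same 7 means.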

How the data were processed

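Stranded mRNA libraries of 14 samples were measured. The authors processed the reads in OmicSoft ArrayStudio against mm10 refGene and deposited FPKM, 1 column a library; counting settings are not given in the sources used here, and FPKM carries no depth, so totals were estimated from its steps. The authors' comparisons (differences, folds and p-values, made with DESeq2) were not used. A fit of log2(FPKM + 1) with limma 3.58.1 (R 4.3.3; trend and robust moderation, two-sided, Benjamini-Hochberg) covered genes at 1 FPKM or more in at least 2 libraries: 11650 in the 12 Day3 libraries and 11874 in all 14. The 4 controls had equal weight. It was tested on simulated data. Members, lists and comparisons were chosen with earlier results of these data known. Named genes were the members, up to 4 of each list with the largest passing difference in siSbp2l or at Day3, and the 3 most alike per member over 7 group means; some genes so chosen are not reported here. Gene positions and transcripts were GENCODE vM21, promoters and miRNA RefSeq. Floors and fragment numbers cover counting error only. Replicate numbers did not pair samples. Alternatives are listed at the end.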

Additional observations from a re-analysis of the deposited data

How the results depend on the processing

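Of 1182 values of members under alternatives, 1081 kept their direction and side of the threshold, 36 lost and 36 gained the call, and 29 changed sign, each of these from an estimate that had not passed. Insig1, Abca1, Apoe and Mylip in siSbp2l and Insig1, Insig2, Apoe and Mylip in siPdgfra kept their calls against the 4 controls in every alternative that tested them; Insig1 ranged from -1.55 to -1.31 in siSbp2l and from -1.05 to -0.88 in siPdgfra.

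Members passing in siSbp2l were 7 of those with GC content once the GC trend was removed (chosen after seeing the data) and 4 to 7 when 1 library was left out. Members at 2-fold in siPdgfra were 2 (Apoe and Insig1) with median-ratio or upper-quartile scaling. They were also 2 with a pseudocount of 0.1, there Apoe and Mylip, and 1 to 2 with 1 library left out. For both NC siRNAs against no siRNA, 2 to 5 passed with 1 library left out. Between the NC siRNAs 0 passed with a pseudocount of 5, an FPKM minimum of 5, or any library left out, 2 with no filter, 3 with median-ratio scaling, 4 with the GC trend removed and 5 in a fit of only their libraries. Genes of the table at 2-fold, with pseudocounts of 0.1 and 5, were 1376 and 392 in siSbp2l, 1527 and 382 in siPdgfra, 775 and 196 between the NC siRNAs and 399 and 33 against no siRNA; with 5 they were 694 between the knockdowns and 1915 at Day3 against Day0. The pseudocount by construction shrinks low genes. In siSbp2l the share of all genes that passed also moved when a non-treated library was left out, as given above. Shares for the other settings are not given here, so these member counts cannot be read as results about the members.

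Signs changed as follows, on the log2 scale. Insig2 in siSbp2l was -0.15 and -0.12 under median-ratio and upper-quartile scaling, -8.5e-05 without the non-treated group, and -0.078 to 0.085 with 1 library left out. Abca1 in siPdgfra was -0.062 to 0.053 with 1 library left out. For both NC siRNAs against no siRNA, median-ratio, upper-quartile and GC settings gave -0.040, -0.055 and -0.052 for Srebf2 and -0.028, -0.043 and -0.048 for Scap. Leaving out 1 library gave -0.035 to 0.41 for Srebf1, -0.13 to 0.13 for Srebf2 and -0.12 to 0.15 for Scap. With mock in place of non-treated cells against Day0, Srebf2 was 0.21 and Scap 0.048; with 1 library left out Srebf1 was -0.21 to 0.68. Insig1 in siPdgfra against Day0 was -0.0048 to 0.14 with 1 library left out. The causes were not tested.

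With the replicate block, 0 members passed between the NC siRNAs (Mylip 0.36, adjusted p = 0.059, limma), and no other call of a member changed. Deviations of same-numbered libraries correlated from -0.38 to 0.47 over 21 pairs of groups, 4 of them above 0.1, so the numbers were not taken as pairs. With 2 libraries a group and 15 fragments behind the lowest Mylip value, small differences of low genes could not be resolved.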
